A study of Mus musculus with 3 samples.

Results

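The genes of oxidative phosphorylation that are encoded in the nucleus were followed in the apoptotic bodies (ABs) of mouse bone marrow macrophages (BMM-ABs), preosteoclasts (pOC-ABs) and mature osteoclasts (mOC-ABs). A gene was a member when GENCODE M21 annotates it as protein-coding and its symbol begins with Nduf, Uqcr, Atp5, Cox4, Cox5, Cox6, Cox7 or Cox8, or is Sdha, Sdhb, Sdhc, Sdhd or Cyc1, whatever its level. This rule names 94 annotated genes, of which 90 have a listed transcript among the 12394 protein-coding genes of the mRNA table. They comprise 80 subunits (36 of complex I, 4 of complex II, 9 of complex III, 15 of complex IV and 16 of complex V) and 10 assembly or associated factors (Ndufaf1 to Ndufaf8, Cox7a2l and Atp5s). The 4 annotated genes with no listed transcript are Cox6b2, Cox7b2, Cox8b and Cox8c, which are known from testis, heart or muscle.

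Bone marrow of C57BL/6 mice of postnatal week 11 was cultured with M-CSF to give macrophages, by the sample labels at 50 ng/mL for 72 h. RANKL (100 ng/mL), with M-CSF at 30 ng/mL by the labels, was then added. It turned these cells into preosteoclasts within 24 h or into mature osteoclasts after 72 h or longer. The methods of the study name a shorter time with M-CSF for the macrophages and a higher M-CSF dose beside RANKL. The column of the mOC-AB library is named by 72 h, whereas the methods name a later time for mature osteoclasts, so the time of this library is uncertain. According to the sample labels, all 3 cultures, the macrophages included, were then exposed to alendronate (500 μM, 12 h) to make them release ABs, while the methods of the study name another inducer of apoptosis, staurosporine. The labels name the cells, and the description of the series speaks of their ABs. Each stage is 1 library with no replicate, how many mice contributed to a culture was not given in the sources used here, and every difference below is between 3 libraries and has no spread between samples to be set against. The study compared pOC-ABs with BMM-ABs (G1), mOC-ABs with BMM-ABs (G2) and mOC-ABs with pOC-ABs (G3), and each library takes part in 2 of these comparisons. Values of the libraries are given in the order of differentiation throughout, with BMM-ABs first and mOC-ABs last.

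Oxidative phosphorylation takes place in the inner mitochondrial membrane. Complex I (NADH dehydrogenase) and complex II (succinate dehydrogenase) pass electrons to ubiquinone, complex III (cytochrome bc1) passes them on to cytochrome c, complex IV (cytochrome c oxidase) gives them to oxygen, and complex V (ATP synthase) uses the proton gradient that complexes I, III and IV build to make ATP. A few subunits of complexes I, III, IV and V are encoded in mitochondrial DNA, while all others, and the whole of complex II, come from nuclear genes and are imported. Osteoclasts are rich in mitochondria, and their formation from macrophages is known to involve a growth of the mitochondrial pool in which the coactivator PGC-1β, the product of Ppargc1b, takes part.

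The reads of the mRNA table summed to between 7387317 and 9100082 per library. The stages could be read from 10 osteoclast markers, 9 of them listed, whose summed level was 345, 581 and 1870 RPM (reads per 1000000 reads of the mRNA table), with Acp5, the phosphatase stained in osteoclasts, at 88, 292 and 2157 reads. Calcr, the calcitonin receptor, had no listed transcript. The summed level of the 8 macrophage markers went the other way, from 2744 to 1492 and 1409 RPM. None of the 5 neutrophil and 4 erythroid markers had a listed transcript, so they have no measured count here. Of the 5 lymphocyte markers only Cd79a was listed, with 2, 1 and 0 reads. Of the endothelial markers 2 were listed, as were 2 of the stromal and osteoblast markers, and neither list summed to more than 4.93 RPM in a library. In sum the osteoclast and macrophage markers moved with the stage, but not each gene did. Nfatc1 alone held 2566, 2772 and 8463 of the 3139, 4292 and 14413 osteoclast marker reads. Itgb3 had 6, 3 and 0 reads, while the 8 osteoclast markers with at least 20 reads were higher in all 3 comparisons. Of 7 macrophage markers with at least 20 reads, all were lower in G1 and G2. In G3, 3 of them were higher, among them Csf1r (9870, 2640 and 3902 reads, log2 0.50). The part of these markers in the results below was not tested.

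The nuclear-encoded subunits made up a larger share of the mRNA reads in pOC-ABs and mOC-ABs than in BMM-ABs, and differed little between the first 2. Their summed reads were 73953, 76801 and 79223, or 8127, 10396 and 10281 RPM. The log2 ratio was 0.36 in G1 (95% interval 0.34 to 0.37), which is 1.28-fold, and 0.34 in G2 (0.32 to 0.35), which is 1.27-fold. In G3 it was -0.016 (-0.030 to -0.0017), a value that became 0.033 with median-of-ratios size factors and 0.083 when each library was scaled to the reads of the mRNA and lncRNA tables together. These intervals are exact binomial ones and cover counting error only, since the reads carry no molecular identifiers. The scale to both tables lowered every ratio of G1, with the median of all 11000 protein-coding genes compared at -0.24 instead of -0.045, and it left the summed ratio of the subunits in G1 at 0.16. A larger share of ABs holding these mRNAs and more copies in each AB cannot be told apart in such data.

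Gene by gene, 88 of the 90 members had at least 20 reads over the 3 libraries and were compared. The exceptions were Cox4i2, a hypoxia-linked isoform of a complex IV subunit, with 0, 3 and 0 reads, and Ndufa4l2, a paralogue of Ndufa4, with 2, 6 and 1 reads. The level in RPM was highest in pOC-ABs for 57 members, in mOC-ABs for 28 and in BMM-ABs for 3, and it was lowest in BMM-ABs for 75. This order is not given here for all genes. The log2 ratio was above 0 for 79 of the 88 members in G1 and 81 in G2. Among all 11000 protein-coding genes compared it was above 0 for 5115 in G1 and 4639 in G2. The members had a median log2 ratio of 0.50 in G1, where all protein-coding genes compared had -0.045. In G2 the members were at 0.38 beside -0.089, and in G3 at -0.13 beside -0.054. The distance between the members' median and the median of all genes does not depend on how the libraries are scaled, and it came to 0.54, 0.47 and -0.079 for G1, G2 and G3. The counting interval lay wholly above 0 for 66 members and wholly below 0 for 4 in G1, beside 25.4% and 33.2% of all genes. It lay above 0 for 63 and below for 3 in G2, beside 22.8% and 35% of all genes, and above for 18 and below for 35 in G3, beside 22.7% and 28.5%. Intervals narrow as reads increase, so these shares also depend on how abundant a gene is.

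In G1, 11 members were more than 2-fold higher in pOC-ABs and 0 were more than 2-fold lower, where 3.42% of all protein-coding genes compared were higher and 5.62% lower by this limit. With the total of both tables as the scale 7 members were higher and 0 lower past 2-fold in G1, beside 2.36% and 9.12% of all genes. At a limit of 1.5-fold, 40 members were higher and 1 lower in G1, beside 11.5% and 15.6% of all genes. In G2, 2 members were more than 2-fold higher and 1 lower, beside 3.31% and 8.88% of all genes, and 18 were higher and 2 lower at 1.5-fold, beside 8.12% and 19.9%. In G3, 0 members were more than 2-fold higher and 3 lower, beside 2.91% and 6.17% of all genes, and 1 was higher and 6 lower at 1.5-fold, beside 7.53% and 14.5%. The members past 2-fold in G1 were thus 12.5% of the 88, above the share of all genes, while those higher in G2 were 2.27%, below it. At 1.5-fold the members higher were 45.5% in G1 and 20.5% in G2, both above the share of all genes. In these counts and in the medians 0.5 reads were added to each count.

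**Figure D1:**
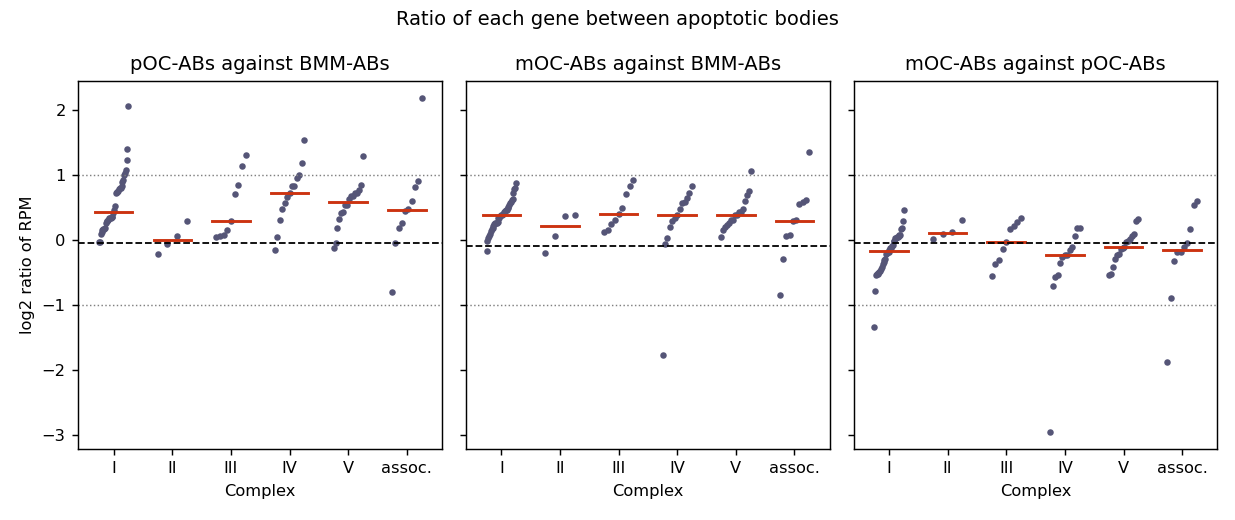
Log2 ratio of RPM for each member compared (points, 0.5 reads added to each count), by complex and for the assembly and associated factors (assoc.), in G1 (left), G2 (middle) and G3 (right). Red bars are the median of a class, dashed lines the median of all protein-coding genes compared and dotted lines 2-fold. In G1, the median of complex II lies near the dashed line and the other class medians lie above it, and the lowest point of G2 and G3 is Cox6a2.

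By complex, the summed subunit reads gave log2 ratios in G1 of 0.43 for complex I, 0.085 for complex II, 0.43 for complex III, 0.44 for complex IV and 0.29 for complex V. The corresponding values were 0.34, 0.24, 0.39, 0.35 and 0.34 in G2. In G3 complexes I, III and IV were at -0.092, -0.043 and -0.091, and complexes II and V at 0.15 and 0.043. With the total of both tables complex II turned to -0.11 in G1 and complexes I, III and IV to 0.0065, 0.056 and 0.0074 in G3, and with the reads of nuclear protein-coding genes as the total complex V turned to -0.0028 in G3. The share of each complex in the subunit reads of a library needs no such scale. Complex I held 23.5% (95% interval 23.2 to 23.8), 24.8% (24.5 to 25.1) and 23.5% (23.2 to 23.8), and complex IV held 16.8%, 17.8% and 16.9%. Complex II held 8.39% (8.20 to 8.60), 6.96% (6.78 to 7.14) and 7.83% (7.65 to 8.02), and complex V 38.7%, 37.1% and 38.6%. Complex III held 12.7%, 13.4% and 13.1%. By reads the makeup of pOC-ABs thus stood apart from both others, with larger shares of complexes I and IV and smaller shares of complexes II and V. With the reads of protein-coding transcripts alone complex I held 21.2%, 23.1% and 23.1%, so that its share was then alike in pOC-ABs and mOC-ABs.

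The 13 mRNAs encoded in mitochondrial DNA held 193600, 138403 and 132503 reads in sum, for log2 ratios of -0.18, -0.31 and -0.12 in G1, G2 and G3. Most of these reads belong to complex IV, and the complexes differed. In G1 the summed log2 ratio of the mitochondrial mRNAs was -0.26 for complex IV, -0.016 for III, 0.082 for I and 0.34 for V. In pOC-ABs 6 of the 13 mRNAs were higher, beside 5115 of all 11000 genes compared. In G2 it lay below 0 for all 4 complexes, from -0.35 for IV to -0.093 for III and V. As a share of all subunit reads of both genomes, the nuclear genes held 27.6% in BMM-ABs (95% interval 27.5 to 27.8), 35.7% in pOC-ABs (35.5 to 35.9) and 37.4% in mOC-ABs (37.2 to 37.6). For complex IV, whose catalytic core is mitochondrially encoded, the nuclear share was 7.49%, 11.7% and 11.7%, and the mitochondrial reads were 153079, 103590 and 101464. For complex I the nuclear share was 38.4%, 44.3% and 47.0%, and for complex III it was 49.8%, 57.5% and 58.0%. Complex V, with 2 mitochondrial genes, differed from these, at 90.1%, 89.8% and 92.4%.

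**Figure D2:**
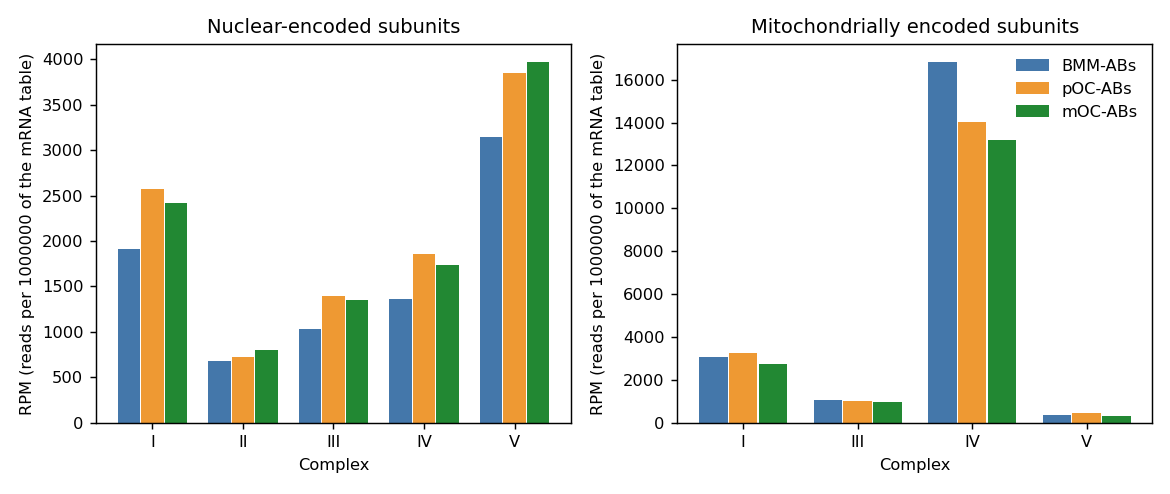
Summed RPM for nuclear-encoded (left) and mitochondrially encoded (right) subunits of each complex, 1 bar per library. The nuclear bars of BMM-ABs are the lowest in all 5 complexes, and the mitochondrial bar of complex IV is highest in BMM-ABs (16822 RPM against 14023 in pOC-ABs and 13168 in mOC-ABs).

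To compare genes with each other, levels were taken per length, as deposited FPKM summed over the transcripts of a gene. The members were among the more abundant mRNAs of the ABs. Their median mean FPKM was 85.7, where all protein-coding genes compared had a median of 14.9, and 50 of 88 members lay among the top 10%. The median subunit of complex I was at 53.0, 72.7 and 58.9 FPKM, that of complex II at 87.8, 92.5 and 93.5, that of complex III at 111, 177 and 167, that of complex IV at 94.0, 155 and 118 over its 15 genes, and that of complex V at 141, 201 and 180. By the mean of the 3 libraries the highest subunit was Atp5b, the catalytic β subunit of the F1 head of ATP synthase, at 582, 680 and 812 FPKM. It was followed by Cox8a, a small membrane subunit of complex IV, at 570, 703 and 793 FPKM, which was the higher of the pair in pOC-ABs.

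**Figure D3:**
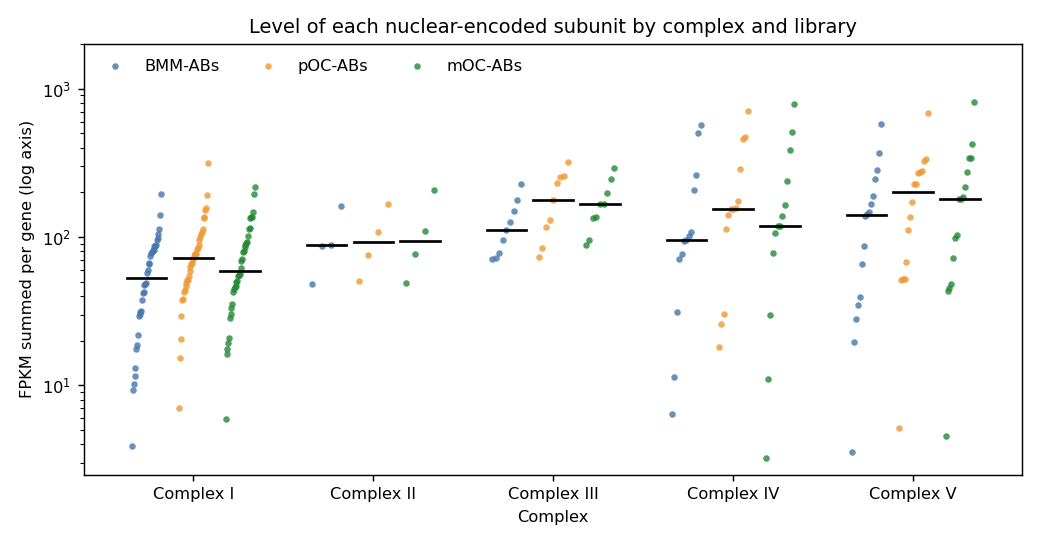
FPKM summed per gene (log axis) of each nuclear-encoded subunit compared, by complex and library, with medians over the plotted genes as black bars. Complexes III, IV and V hold the highest medians, and Atp5b and Cox8a are the highest points of complexes V and IV.

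Complex I has 7 redox core subunits encoded in the nucleus, which carry the flavin and the iron-sulfur clusters, and 29 supernumerary subunits around them. In G1 the median log2 ratio was 0.74 over the supernumerary and 0.17 over the core subunits, in G2 it was 0.37 and 0.45, and in G3 -0.22 and 0.17. The core value of G1 turned to -0.029 with the total of both tables. Ndufs1, the largest iron-sulfur subunit, had 824, 820 and 961 reads, or log2 ratios of 0.29 in G1 (0.15 to 0.44) and 0.46 in G2 (0.33 to 0.60). Ndufs8, an iron-sulfur subunit (chr19:3908863-3912774, minus strand), had 843, 768 and 1097 reads and the highest ratio of the core in G2 at 0.62 (0.49 to 0.75), with 0.45 in G3 (0.32 to 0.59). The level of Ndufs8 was thus highest in mOC-ABs. Ndufv1, which binds NADH and the flavin, had 577, 527 and 506 reads, with intervals that held 0 in all 3 comparisons.

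The supernumerary subunits held the members of complex I with the largest ratios, all highest in pOC-ABs. Ndufa12 (chr10:94198720-94221443, plus strand), a subunit of the peripheral, NADH-oxidising arm, had 82, 279 and 115 reads, a 4.19-fold difference in G1 (log2 2.07, 1.71 to 2.44), 1.66-fold in G2 and 0.395-fold in G3. Its FPKM was 10.3, 58.6 and 20.9. A processed pseudogene, Gm15920, holds 26.2% of its 50-base words and was listed with 389, 716 and 594 reads, and how reads were divided between them is not given in the sources used here. Ndufa5, a subunit of the same arm, had 118, 252 and 183 reads, or 2.63-fold in G1 and 1.83-fold in G2. Ndufc1, a small membrane-arm subunit, had 129, 247 and 149 reads, with 2.36-fold in G1 and 0.578-fold in G3. Ndufa13, also known as GRIM-19 and linked to cell death by interferon and retinoic acid, had 355, 609 and 443 reads, or 2.11-fold in G1. Ndufb3, a membrane-arm subunit, had 260, 430 and 329 reads, or 2.04-fold. In these 5 genes mOC-ABs lay between BMM-ABs and pOC-ABs. Ndufv3, the most abundant subunit of complex I per length at 196, 315 and 219 FPKM, had 963, 1309 and 1051 reads. On the log2 scale it was at 0.74 in G1 (0.62 to 0.87) and 0.37 in G2. Over all 36 subunits of complex I the log2 ratio ran from -0.038 to 2.06 in G1, from -0.17 to 0.87 in G2 and from -1.34 to 0.45 in G3, with 34 above 0 in G1 and 34 in G2. Of all 11000 genes compared 5115 were above 0 in G1 and 4639 in G2.

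Complex II, the only enzyme shared with the citric acid cycle and the only complex that is wholly nuclear, showed the smallest ratio of G1. Sdha, the flavoprotein, had 2162, 2154 and 2392 reads, with log2 ratios of 0.30 in G1 (0.21 to 0.38) and 0.39 in G2 (0.30 to 0.47). Sdhb, the iron-sulfur subunit (chr4:140961203-140979193, plus strand), was among the few members lower in both osteoclast stages. It had 918, 641 and 676 reads. G1 gave a log2 ratio of -0.22 (-0.37 to -0.07) and G2 one of -0.20 (-0.35 to -0.06). Sdhc, a membrane anchor, had 1322, 1027 and 1165 reads, with -0.06 in G1 (-0.18 to 0.06) and 0.06 in G2 (-0.06 to 0.17). Sdhd, the other anchor, had 1806, 1524 and 1973 reads. The G1 interval held 0 (0.06, -0.04 to 0.16), while G2 was at 0.37 (0.27 to 0.46) and G3 at 0.31 (0.21 to 0.41). Sdhd was the highest of the 4 per length, at 161, 168 and 208 FPKM. Subunits of one complex therefore did not share one ratio, with Sdha and Sdhb on opposite sides of 0 in G1 and G2.

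Complex III carries its electrons on cytochrome c1 (Cyc1) and the Rieske iron-sulfur protein (Uqcrfs1), besides a mitochondrially encoded cytochrome b. Cyc1 had 1037, 1028 and 1238 reads. G1 was at 0.29 (0.16 to 0.41), G2 at 0.50 (0.38 to 0.62) and G3 at 0.21 on the log2 scale. Uqcrfs1 had 888, 739 and 930 reads, and G1 was at 0.04 (-0.11 to 0.18), G2 at 0.31 (0.17 to 0.44) and G3 at 0.27 (0.13 to 0.41). Both were highest in mOC-ABs, as was Uqcrc1, a large matrix-side core protein, with 1851, 1565 and 2068 reads, for log2 ratios of 0.06, 0.40 and 0.34 in G1, G2 and G3. The G1 values of Uqcrfs1 and Uqcrc1 turned to -0.16 and -0.14 with the total of both tables. The small subunits were highest in pOC-ABs. Uqcrb (chr13:66900617-66905378, minus strand), which binds near the ubiquinone site, had 351, 702 and 565 reads, or 2.46-fold in G1 (log2 1.30, 1.11 to 1.49) and 1.90-fold in G2. Of its 50-base words 43.4% occur in other genes. The processed pseudogenes Gm16089 and Gm2962 hold 27.2% and 20.6% of its words, and Gm2962 was listed with 39, 103 and 49 reads. How reads were divided between them is not given in the sources used here. Uqcr11 had 489, 869 and 734 reads, or 2.19-fold in G1 and 1.77-fold in G2. Uqcr10, the most abundant per length by the mean of the 3 libraries at 178, 318 and 292 FPKM, had 713, 1039 and 983 reads, or 1.80-fold and 1.63-fold. Uqcrh, the hinge protein next to cytochrome c1, differed less between the libraries, with 1138, 1026 and 1048 reads. Its G1 value was 0.15 (0.03 to 0.27), or -0.047 with the total of both tables, and its G2 value 0.12. All 9 subunits had a ratio above 0 in G1 and all 9 in G2, with the reads of the mRNA table as the scale. On this scale 5115 of all 11000 genes compared were above 0 in G1 and 4639 in G2.

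In complex IV the nuclear subunits surround a mitochondrially encoded core, and several exist as paralogues with tissue-specific use. Cox8a (chr19:7215153-7217616, minus strand) had 2829, 2830 and 3332 reads, with log2 ratios of 0.30 in G1 (0.23 to 0.38) and 0.48 in G2 (0.40 to 0.55). Cox4i1, the ubiquitous form of a regulatory subunit, had 3352, 2452 and 2894 reads and was one of the 4 members whose interval lay below 0 in G1, at -0.15 (-0.23 to -0.07). Its G2 value was 0.03 (-0.04 to 0.10), and -0.072 with the total of both tables. Cox6b1, which faces the intermembrane space, had 1393, 1998 and 1763 reads, or 0.82 in G1 (0.72 to 0.92) and 0.58 in G2. Cox6c had 555, 874 and 611 reads, or 0.96 in G1 (0.80 to 1.11), and 0.38 in G2 by reads but -0.025 by summed FPKM. Ndufa4, once assigned to complex I and now to complex IV, had 445, 721 and 587 reads, or 0.64 in G2 and, in G1, a ratio just under 2-fold (log2 interval 0.82 to 1.17), where its paralogue Ndufa4l2 held 9 reads in all.

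Cox6a2, the isoform of heart and skeletal muscle, was highest in pOC-ABs and lowest in mOC-ABs. It had 70, 130 and 17 reads (chr7:128205435-128206387, minus strand), on 1 listed transcript of which 3.3% of the 50-base words occur elsewhere. Its ratio was 2.29-fold in G1 (log2 1.19, 0.76 to 1.63), 0.287-fold in G2 (log2 -1.80, -2.66 to -1.02) and 0.125-fold in G3 (log2 -3.00, -3.82 to -2.26). It was the only member more than 2-fold lower in G2 and had the lowest ratio of the members in G3. Cox6a1, the ubiquitous isoform, had 1091, 1227 and 1062 reads, or 0.47 in G1 (0.35 to 0.59) and 0.20 in G2 (0.08 to 0.32), and held most of the reads of the pair in all 3 libraries. Cox7a1, another muscle isoform, had 23, 55 and 35 reads, or 2.95-fold in G1 with a wide interval (log2 1.56, 0.83 to 2.33), while the liver-type Cox7a2 had 584, 745 and 813 reads, or 0.65 and 0.72 in G1 and G2. Cox4i2 stood at 0 reads in BMM-ABs and mOC-ABs, where 3 reads, the limit that a count of 0 allows, are 0.330 and 0.389 RPM.

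Complex V consists of the F1 head with its central stalk, the ring of c subunits, and the membrane and peripheral stalk parts. Atp5b (chr10:128083273-128090391, plus strand) had 8423, 9163 and 9589 reads. Its log2 ratio was much the same in both comparisons with BMM-ABs, at 0.42 (0.38 to 0.47) for G1 and 0.43 (0.38 to 0.47) for G2, and it was 0.0047 for G3. Atp5a1, the α subunit that alternates with β in the same head, had 8017, 5953 and 7787 reads. G1 was at -0.13 (-0.18 to -0.08), G2 at 0.20 (0.15 to 0.24) and G3 at 0.33 (0.28 to 0.38). These 2 partners therefore differed in G1 by more than their counting intervals, with Atp5b higher and Atp5a1 lower in pOC-ABs. Atp5d, the δ subunit of the central stalk, had 2681, 2108 and 2343 reads, with -0.05 in G1 (-0.13 to 0.04) and 0.05 in G2 (-0.04 to 0.13). Atp5k, the small e subunit that links ATP synthase dimers (chr5:108433244-108434448, minus strand), had 72, 143 and 128 reads. It was the only subunit more than 2-fold higher in G2, at 2.10-fold (log2 1.07, 0.64 to 1.51), besides 2.45-fold in G1 (log2 1.29, 0.87 to 1.72). All 16 genes of complex V were above 0 in G2, beside 4639 of all 11000 genes compared, with Atp5d turning to -0.054 under the total of both tables.

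The c ring is encoded by 3 genes whose mature proteins are identical, and their reads have to be read with their processed pseudogenes. Atp5g3 led with 923, 937 and 1018 reads, followed by Atp5g1 with 256, 355 and 366, while Atp5g2 had 22, 26 and 23. Atp5g1 had log2 ratios of 0.77 in G1 and 0.76 in G2. Of the 50-base words of the Atp5g2 transcript with the most reads 87.4% occur in the pseudogene Gm10175, which was listed with 2456, 2066 and 2421 reads. Another pseudogene, Gm10231, holds 57.5% of these words and was listed with 12, 11 and 13 reads. Of the words of Atp5g1 61.2% occur in Gm10039, listed with 1086, 1153 and 1188 reads. With the pseudogenes added, the log2 ratio of G1 was 0.06 for Atp5g2 (-0.03 to 0.14) and 0.47 for Atp5g1 (0.36 to 0.58). The place of Atp5g2 among the 3 genes is therefore uncertain. A further 2 members, singled out for this reason after their values were seen, share at least 50% of their words with a pseudogene, Atp5h (695, 1007 and 723 reads, with Gm10250 at 690, 692 and 710) and Atp5l (181, 195 and 184 reads, with Gm10221 at 918, 1581 and 1391). With Gm10221 added, Atp5l went from a log2 ratio of 0.41 to 0.99 in G1. The summed ratio of all subunits with these 5 pseudogenes added was 0.36 in G1 and 0.34 in G2.

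Among the assembly and associated factors, which were not counted as subunits here, the ratios ran from -0.80 to 2.19 in G1 and from -0.84 to 1.35 in G2. Atp5s (chr12:69724950-69744660, plus strand), also called factor B, had 24, 90 and 25 reads, or 4.62-fold in G1 (log2 2.21, 1.54 to 2.92) and 0.266-fold in G3, so that pOC-ABs alone stood high. Ndufaf6, an assembly factor of complex I, had 49, 70 and 106 reads and the highest ratio of G2 at 2.55-fold (log2 1.35, 0.85 to 1.87). Ndufaf4, needed for the same assembly, had 170, 79 and 80 reads, or 0.572-fold in G1 and 0.556-fold in G2, while its summed FPKM of 5.45, 7.76 and 6.16 gave log2 ratios of 0.51 and 0.17. Its direction hence depends on whether reads or reads per length are summed. Ndufaf2 had 35, 43 and 24 reads, and Ndufaf8 had 92, 72 and 114, the only member over 1.5-fold higher in G3 at 1.52-fold (log2 0.60, 0.16 to 1.05). Cox7a2l, which joins complexes III and IV into supercomplexes, was the most abundant of them with 1887, 2079 and 2434 reads, or 0.44 in G1 and 0.61 in G2.

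Many members are short mRNAs, and short mRNAs in general had higher ratios in G1 and G2. The read-weighted transcript length had a median of 879 bases over the members and 2796 over all genes compared. Among genes of up to 600 bases the median log2 ratio of G1 was 0.78 over 21 members and 0.35 over 135 other genes, and from 600 to 1000 bases it was 0.61 over 30 members and 0.28 over 563 others. From 1000 to 1500 bases it was 0.44 over 19 members and 0.11 over 1150 others, and from 1500 to 2000 bases 0.18 over 11 members and 0.011 over 1400 others. The members thus lay above other genes of like length up to 2000 bases in G1. In all, 69 of 88 members lay above the median of their length class in G1, as did 74 in G2 and 42 in G3. Over 1000 bases, 37 members had medians of 0.30 in G1, 0.37 in G2 and -0.017 in G3, beside -0.069, -0.10 and -0.046 over all 10251 genes of that length. The core subunits have longer mRNAs than most supernumerary ones, and the part of length in the difference between them was not tested. Across members, Spearman's rho of the ratio with length was -0.35, -0.17 and 0.32 for G1, G2 and G3 (n = 88 genes of the same libraries, given as a description).

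**Figure D4:**
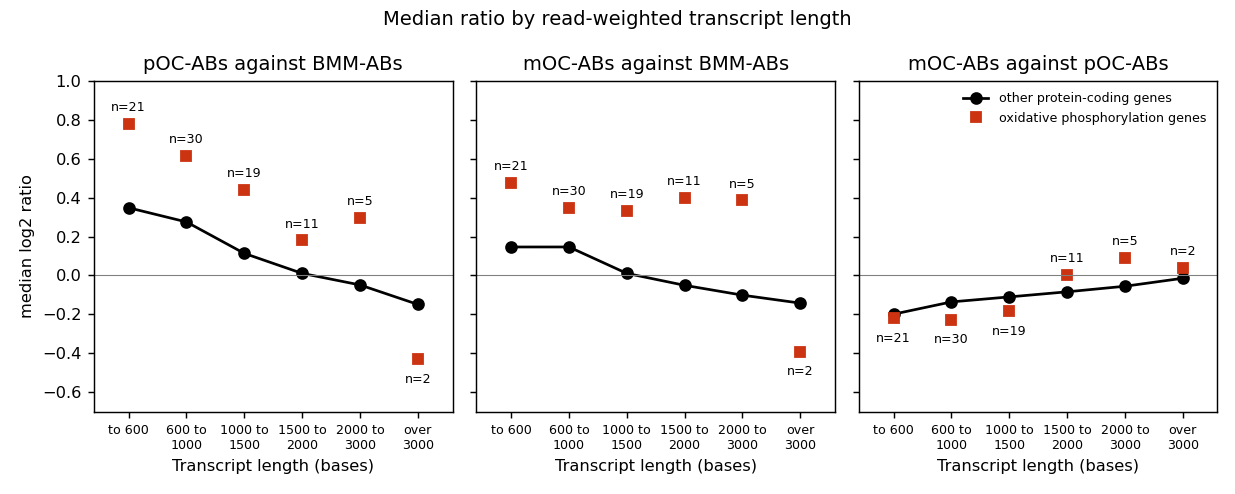
Median log2 ratio by class of read-weighted transcript length (bases) for the members (red squares, number of genes above or below each) and all other protein-coding genes compared (black circles), in G1, G2 and G3. In G1 the other genes decline with length and the members decline up to 2000 bases, and the members lie above the other genes in every class up to 3000 bases. The last class holds 2 members.

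At the level of transcripts, the members had 352 listed transcripts, 1 for each of 17 genes and up to 11 for one gene. Transcripts annotated as protein-coding held 92.1%, 93.9% and 94.2% of the members' reads, beside 90.2%, 91.5% and 91.9% over all protein-coding genes. Of 60 members with several transcripts and at least 100 reads in every library, 7 had a different leading transcript in different libraries. The same count over all protein-coding genes is not given here, so whether 7 of 60 is more or less than usual cannot be said. The clearest was Ndufa10, a supernumerary subunit of complex I (chr1:92439010-92473860, minus strand), whose reads hardly changed at 1345, 1185 and 1272. Its protein-coding transcript ENSMUST00000027478 held 306, 420 and 1236 of them (22.8%, 35.4% and 97.2%), and the transcript ENSMUST00000189503, annotated for nonsense-mediated decay, held 974, 717 and 0. In Atp5j2, the f subunit of ATP synthase (chr5:145183698-145192062, minus strand), ENSMUST00000037056 held 0, 0 and 162 of 253, 328 and 237 reads, and ENSMUST00000161741 held 218, 245 and 63. In Cox6c (chr15:35925886-35938246, minus strand) ENSMUST00000153512 held 31, 595 and 339 of 555, 874 and 611 reads, and ENSMUST00000014457 held 435, 230 and 150.

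In the next 3 genes the shift was smaller. In Atp5d, ENSMUST00000105367 held 1162, 869 and 15 reads and ENSMUST00000003156 held 872, 842 and 1802. In Atp5j, the coupling factor 6 of the peripheral stalk, pOC-ABs stood apart, with ENSMUST00000114191 at 54.1%, 18.0% and 55.6% of 586, 739 and 579 reads. In Ndufs1, ENSMUST00000168099 held 49.1%, 61.3% and 86.7% and was the leading transcript throughout. In 4 of these 6 genes, Ndufa10, Atp5j2, Atp5d and Ndufs1, mOC-ABs differed from both others, and in Cox6c BMM-ABs did. The counts of transcripts of 1 gene are estimates that share reads, so these shares rest on how the authors' counting assigned reads to overlapping transcripts.

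**Figure D5:**
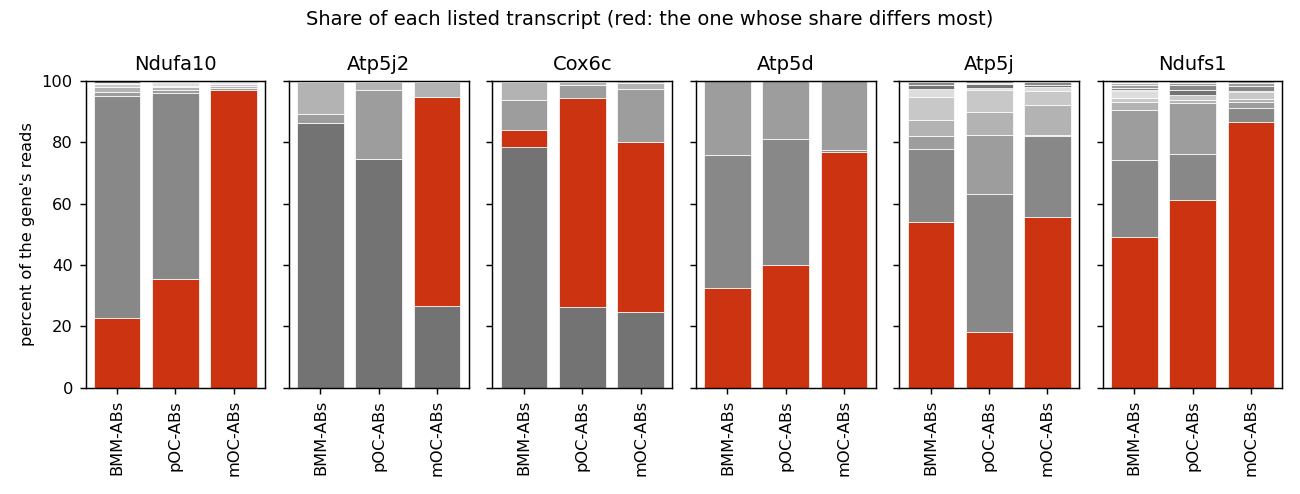
Percent of the reads of a gene on each listed transcript (stacked), in the 3 libraries, for the 6 members whose transcript shares differ most. Red marks the transcript with the largest difference, for example 22.8%, 35.4% and 97.2% of the Ndufa10 reads, and greys mark the other transcripts.

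Other gene families of the pathway and of the ribosome were set beside the members, and all of them had lower median ratios in both comparisons with BMM-ABs. In G1 it was 0.50 over the 88 members, 0.28 over 91 cytosolic ribosomal proteins, 0.29 over 78 mitochondrial ribosomal proteins, 0.26 over 41 other assembly factors with cytochrome c, and 0.22 over 13 enzymes of the citric acid cycle. In G2 these medians were 0.38, 0.25, 0.23, 0.22 and 0.23. The families were not matched to the members by transcript length. Over the members above 1000 bases the median was 0.30 in G1 and 0.37 in G2, and the same medians of the families are not given here. The part of length in these differences was not tested. The 13 mitochondrially encoded mRNAs had medians of -0.016 in G1, turning to 0.030 with median-of-ratios size factors, and -0.19 in G2. Past 2-fold in G1, 2 of the 41 assembly factors were higher and 0 lower, and in G2 4 were higher and 0 lower, where the shares of all genes were 3.42% and 5.62% in G1 and 3.31% and 8.88% in G2. Cycs, the cytochrome c that carries electrons from complex III to IV and is released in apoptosis, had 225, 492 and 281 reads, or log2 1.43 in G1 and 0.56 in G2. Sdhaf1, which helps to fit the iron-sulfur clusters of Sdhb, was listed with 0, 181 and 147 reads, while Sdhb itself was lower in the last 2.

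The regulators of mitochondrial biogenesis had no common direction. Their median over 11 genes with reads was 0.092 in G1 (-0.11 with the total of both tables) and 0.022 in G2 (-0.078), and 0 of them were past 2-fold in any comparison, a count that says little for 11 genes at the shares of all genes, 3.42% higher and 5.62% lower in G1. Ppargc1a had no listed transcript. Ppargc1b had 577, 360 and 503 reads, and was lowest in pOC-ABs, where most members were highest. Nrf1, the transcription factor named nuclear respiratory factor 1, had 349, 218 and 226 reads, and Yy1 had 694, 960 and 951.

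Promoters of these genes are known for sites of NRF1, GABPA (the other nuclear respiratory factor), ERR and YY1, so the letters of the 4 sites were searched on both strands in the RefSeq promoter windows of build GRCm38.p6, from 250 bases before to 50 after a start. Of 90 members, 73 were matched, by Ensembl gene identifier or else by symbol or synonym, with 78 windows. For 67 of the 73 the start lay within 50 bases of a GENCODE start. The NRF1 letters GCGCANGCG occurred in 29.5% of the member windows, 6.25% of all 32851 windows and 14.1% of the 11088 windows of protein-coding genes that had at least 20 reads here. The GABPA letters CCGGAAG occurred in 23.1%, 8.86% and 18.9%, the YY1 letters AAGATGGCG in 10.3%, 1.40% and 3.32%, and the ERR letters TCAAGGTCA in 2.56%, 0.423% and 0.280%. The ERR share of the members rests on only 2 of the 78 windows. The YY1 letters end in the 3 letters with which the NRF1 letters begin, so matches of different motifs can overlap, and a match is a run of letters, not a bound site. In G1 the median log2 ratio was 0.37 over 22 members with the NRF1 letters and 0.59 over 51 without, and for GABPA it was 0.55 over 18 with and 0.52 over 55 without. The members with the NRF1 letters were thus not the ones with the higher ratios.

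To show these letters in place, example windows follow from subunits with NRF1 or YY1 letters in the 150 bases before the start (complex III had none). Not every member was open to this choice. Another subunit of the same complex with a higher mean FPKM may therefore have such letters too. The 150 bases are written 5′ to 3′ along the gene's strand up to the start, with the NRF1 letters in capitals. Other letters that were searched, such as those of GABPA, stay in lower case. Ndufa8 lies at chr2:36049339-36049488, Sdhd at chr9:50603850-50603999, Cox6a1 at chr5:115348959-115349108 and Atp5h at chr11:115419920-115420069, all on the minus strand. The RefSeq start of a window can differ from the GENCODE start of the gene, and by GENCODE 68 bases of the Ndufa8 window, 23 of the Cox6a1 window and 43 of the Atp5h window lie inside the gene.
Ndufa8: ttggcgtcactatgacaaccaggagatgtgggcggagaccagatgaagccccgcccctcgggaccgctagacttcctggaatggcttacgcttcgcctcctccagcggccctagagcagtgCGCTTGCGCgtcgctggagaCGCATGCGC
Sdhd: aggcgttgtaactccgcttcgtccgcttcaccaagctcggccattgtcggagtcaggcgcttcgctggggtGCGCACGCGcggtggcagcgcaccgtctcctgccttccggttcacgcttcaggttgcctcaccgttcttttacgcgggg
Cox6a1: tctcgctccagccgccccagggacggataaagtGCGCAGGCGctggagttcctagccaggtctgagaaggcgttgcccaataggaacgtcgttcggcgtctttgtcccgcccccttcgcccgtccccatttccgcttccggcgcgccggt
Atp5h: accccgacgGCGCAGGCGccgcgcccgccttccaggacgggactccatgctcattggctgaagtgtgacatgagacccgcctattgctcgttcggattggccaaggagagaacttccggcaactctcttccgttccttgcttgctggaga
The Ndufa8 window has the letters at 2 places on the other strand, and each of the other windows has them at 1 place on the gene's own strand. The 4 genes did not move alike: the log2 ratio of G1 was -0.04 for Ndufa8 (678, 536 and 568 reads), 0.06 for Sdhd, 0.47 for Cox6a1 and 0.84 for Atp5h.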

How the data were processed

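RNA purified with poly-T beads was sequenced paired-end on an Illumina NovaSeq in 3 libraries, 1 for the ABs of each stage. The submitters' processing notes name FastQC, HISAT2, StringTie and GRCm38, and the strand setting of the counting is not given in the sources used here. The authors deposited read counts and FPKM per transcript for mRNAs and lncRNAs (FPKM divides the reads by transcript length and library total) and junction read counts for circRNAs, in columns named by 0, 24 and 72 h, which were matched to the times in the labels. Another 6 columns of per-library values (lncRNA FPKM and circRNA SRPBM) were not used. FPKM were used for levels between genes and as an alternative.

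Counts were summed per gene symbol through GENCODE M21 (56440 of 56651 transcripts found), and reads of unmatched transcripts stayed in the totals. Library totals of the mRNA table were 9100082, 7387317 and 7705592 reads in the order of differentiation, and log2 ratios of RPM (reads per 1000000) got exact binomial (Clopper-Pearson) 95% intervals, which cover counting error only. No test between stages and no count model was run, since each group has 1 library. The counts past 2-fold (the fold-change limit of the study) or 1.5-fold and the medians used genes with at least 20 reads over the 3 libraries and added 0.5 reads to each count. Length is the mean of the listed transcript lengths weighted by reads. Near copies were found from the transcript of each member with the most reads. They are given as the percent of its 50-base words that occur in transcripts of other GENCODE genes.

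The members and lists were chosen with earlier results of these data known. Genes are named in the text by this rule: the 2 subunits of each complex with the highest mean FPKM, the 4 highest and 4 lowest ratios of each comparison among members with at least 100 reads, all members past 2-fold, paralogue sets, the catalytic and redox-carrying subunits, and the 6 members with the largest differences in transcript shares. A gene that the rule names is not reported here. The alternatives were other totals (both tables, median-of-ratios, upper quartile), protein-coding transcripts only, FPKM, no filter, no pseudocount, 1.5-fold, classes by symbol, and associated factors included. Added after seeing the data were overlapping lncRNA entries, pseudogene copies, the total of nuclear protein-coding reads, and members over 1000 bases. Ratios and intervals were tested on counts simulated with counting error only. Such counts hold no duplicate reads, no errors of read assignment and no spread between cultures, so these were not tested. Python 3.11.15, pandas 2.3.3, NumPy 2.4.6, SciPy 1.17.1 and matplotlib 3.10.9 were used.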

Additional observations from a re-analysis of the deposited data

How the results depend on the processing

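No paired analysis was possible because each group has 1 library, and for the same reason no library could be left out. The summed log2 ratio of the subunits in G1 was 0.16 with the total of both tables, 0.40 with median-of-ratios size factors, 0.40 with the upper quartile, 0.38 with protein-coding transcripts only, 0.43 with FPKM, 0.15 with overlapping lncRNA entries added (and both tables as the total) and 0.44 with nuclear protein-coding reads as the total. In G2 these values were, in the same order, 0.24, 0.43, 0.40, 0.37, 0.36, 0.23 and 0.37. In G3 the sign turned, to 0.083 with both tables, 0.033 with median-of-ratios and 0.079 with the lncRNA entries, while it was -0.00025 with the upper quartile, -0.063 with FPKM and -0.062 with nuclear protein-coding reads. The changed totals add 1 constant to all ratios, and the distance of the members from all genes does not change with them.

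Members past 2-fold, higher or lower, numbered 7 in G1 when both tables were the total, while 41 were past 1.5-fold. For G2 the number was 5 with protein-coding transcripts, 5 with FPKM and 20 at 1.5-fold. For G3 it was 6 with protein-coding transcripts, 5 without the filter and 7 at 1.5-fold. How many of all genes passed 2-fold with protein-coding transcripts, FPKM or no filter is not given here. The numbers under these settings therefore cannot be read as a change particular to the members. The median member ratio was 0.30 with both tables and 0.30 over members above 1000 bases in G1, 0.28 with both tables, 0.47 with median-of-ratios and 0.43 with the upper quartile in G2, and -0.017 over members above 1000 bases in G3.

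The shares of the complexes, in the order BMM-ABs, pOC-ABs and mOC-ABs, were with FPKM 25.8%, 26.6% and 24.9% for complex I, 4.62%, 3.60% and 4.14% for II, 13.3%, 14.7% and 14.3% for III, 25.7%, 25.8% and 25.2% for IV and 30.5%, 29.3% and 31.5% for V. With classes taken by symbol, factors included, they were 24.3%, 25.8% and 24.3% for I, 8.10%, 6.70% and 7.53% for II, 12.3%, 12.9% and 12.6% for III, 18.0%, 18.9% and 18.5% for IV and 37.3%, 35.8% and 37.1% for V. With protein-coding transcripts only they were 21.2%, 23.1% and 23.1% for I, 9.01%, 7.36% and 8.26% for II, 13.6% in pOC-ABs for III, 17.2% in BMM-ABs and 17.2% in mOC-ABs for IV, and 39.7% and 37.9% in BMM-ABs and pOC-ABs for V. Under that setting the remaining shares of complexes III, IV and V stayed within their counting intervals. FPKM divides reads by length and so weights short mRNAs more.

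For single named genes, 588 of 690 alternative values stayed within the counting interval of the reported ratio and 28 had the other sign. Depth limits members with few reads: the interval of Cox7a1 in G1 spans 0.83 to 2.33. No interval here covers the spread between cultures, which was not measured.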

Other observations

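Outside the mRNA table, the members left few reads. Entries of the lncRNA table overlapped 29 members at 58 entries, with 590, 513 and 322 reads in the order BMM, pOC and mOC. They were lowest in mOC-ABs, and the largest sums were those at Ndufs4 (87, 44 and 42 reads), Atp5o (80, 79 and 36) and Ndufaf2 (75, 78 and 70). At Ndufaf2 they exceeded the reads of the gene itself, which were 35, 43 and 24. Of the circRNAs listed, 1 lay in a member, an intronic circle of Atp5g2 with 0, 3 and 0 junction reads.

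Some retained-intron transcripts, singled out after their values were seen, became rarer from BMM-ABs to mOC-ABs in single members. In Ndufb8, a membrane-arm subunit of complex I, the retained-intron transcript ENSMUST00000169181 held 230, 51 and 1 of 798, 800 and 850 reads. In Ndufaf3, an assembly factor of complex I, the retained-intron transcript ENSMUST00000193242 held 42, 12 and 2 of 119, 134 and 123 reads. Over all members, retained-intron transcripts held 3.82%, 3.41% and 2.99% of the reads, and over all protein-coding genes 5.80%, 4.94% and 4.39%, so the order of the libraries was the same in both. Transcripts annotated for nonsense-mediated decay held 1.87%, 1.56% and 0.508% of the members' reads and 2.38%, 2.09% and 2.18% over all protein-coding genes. Of these reads of the members, 974, 717 and 0 were on a transcript of Ndufa10, ENSMUST00000189503, and without it the shares were 0.606%, 0.667% and 0.508%. Transcripts of the class processed transcript did not follow the same order, at 2.21%, 1.13% and 2.33% of the members' reads.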
